A study of Homo sapiens with 10 samples.

Results

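Prohormone processing was followed through 10 genes in human thyroid cells made from embryonic stem cells: the convertases PCSK1 and PCSK2, the carboxypeptidase CPE, the granins CHGA, CHGB, SCG2, SCG3 and SCG5, and the calcitonin genes CALCA and CALCB. They were taken by symbol from 28265 symbols in the count tables. The set was chosen by the measured counts of PCSK2, which rose after day 16, so PCSK2 is described with no test. Whether that rise came with other genes of the neuroendocrine secretory apparatus is the question the other 9 genes address.

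NKX2-1GFP+ cells were sorted, 10000 per library, and their RNA was sequenced in bulk, with 2 libraries on each of days 16, 23, 31, 38 and 45. All groups came from the same modified human ESC line, which carries GFP in place of part of one NKX2-1 allele and NKX2-1 and PAX8 transgenes switched on by doxycycline, and all had received Activin A and doxycycline as organoids before day 16. The labels name c-AMP for days 16, 23 and 31, TSH and DEX for day 38, and TSH and SB for day 45. By the methods of the study, day 16 was the end of a period in basal medium and 8-br-cAMP, a cell-permeable cAMP analogue, was given from then on. It was replaced just before the day 31 collection by hrTSH, a recombinant thyrotropin, and dexamethasone, a glucocorticoid. For day 45, SB431542, which inhibits TGFβ receptor kinases, was added on top of hrTSH and dexamethasone. Age and medium changed together from day to day, and their effects cannot be told apart here. Cells kept on cAMP to later days were not analysed here. The line was obtained by selection after gene transfer and each replicate pooled several wells, so a difference between days is a difference within one line. Libraries held 7247268 to 10333933 counts, and the labels name no batch or run. The gate selects for GFP from the NKX2-1 locus, which is not restricted to follicular cells, and in bulk RNA fewer cells of a type and less RNA per cell cannot be told apart. Thyroid identity was clear in the counts: TG, the thyroglobulin gene, rose from 84 and 95 counts on day 16 to 54854 and 68901 on day 45.

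In endocrine cells and neurons, peptide hormones are made as precursors that are sorted into dense core vesicles. PCSK1 and PCSK2 cut the precursor at pairs of basic residues, CPE removes the basic residues left at the cut ends, and granins help to form and fill the vesicles. SCG5 encodes the chaperone that PCSK2 needs to become active. In the thyroid these genes are known from the calcitonin-producing C cells, which also make CHGA, whereas follicular cells secrete thyroid hormone by another route. CALCA encodes calcitonin and, by alternative splicing, the neuropeptide CGRP, and CALCB encodes a second CGRP. The counts are per gene and do not separate calcitonin from CGRP.

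Several of these promoters carry the cAMP response element (CRE), TGACGTCA, or its half-site, TGACG on either strand, and the culture received a cAMP analogue, so the 120 bases before the transcription start are shown for 4 members and for SST and VGF, which are described below. The sequences are from RefSeq on GRCh38.p14, written 5′ to 3′ on the gene's strand, with the motif in capitals. They were chosen after the values had been seen.
PCSK2: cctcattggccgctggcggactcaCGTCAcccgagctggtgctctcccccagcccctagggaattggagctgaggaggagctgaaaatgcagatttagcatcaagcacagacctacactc
PCSK1: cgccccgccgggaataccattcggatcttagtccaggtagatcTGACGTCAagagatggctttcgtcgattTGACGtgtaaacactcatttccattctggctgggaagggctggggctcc
CHGA: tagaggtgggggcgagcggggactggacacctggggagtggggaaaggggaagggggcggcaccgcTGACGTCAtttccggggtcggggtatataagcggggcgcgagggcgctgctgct
CALCA: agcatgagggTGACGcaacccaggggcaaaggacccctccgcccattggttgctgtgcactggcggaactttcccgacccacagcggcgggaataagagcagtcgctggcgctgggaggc
SST: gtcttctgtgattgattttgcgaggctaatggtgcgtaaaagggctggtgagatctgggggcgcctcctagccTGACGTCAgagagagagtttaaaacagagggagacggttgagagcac
VGF: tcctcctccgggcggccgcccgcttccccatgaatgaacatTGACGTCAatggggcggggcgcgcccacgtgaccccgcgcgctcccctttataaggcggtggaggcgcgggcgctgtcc
Of the 10 members, 7 had an entry in the promoter table, with 9 starts, and CHGB, SCG2 and CALCB had none. A full CRE lay in the 250 bases before the start of PCSK1, where its first base was 77 bases before the first of 2 starts and a half-site followed at 49 bases, with neither form before the second start, and of CHGA, 54 bases before the start. It lay 47 bases before the start of SST and 79 before that of VGF. PCSK2 held no full CRE before either of its starts. It held the half-site, 157 bases before the first start and 96 bases before the second, which is the one shown. CALCA held it at 110 bases before its start, CPE at 221 and 120 bases and SCG5, which had almost no counts, at 17 bases, whereas SCG3 held neither form. In all, 6 of the 7 members in the table held the half-site or the full CRE before a start. NMU, which is described beside SST and VGF, and PPY held neither form before any of their starts, PYY held the half-site before 1 of its 2 starts and TAC1 before its only start. Both forms were searched on both strands, and a full CRE counts as a half-site too. The full CRE occurred in 1.65% of 35116 promoters of the same length and the half-site in 21.2%. These shares are per start, whereas the 6 of 7 are genes, some with 2 starts, so they are not like measures. The shown windows are chr20:17226920-17227039 (plus strand) for PCSK2, chr5:96433249-96433368 (minus) for PCSK1, chr14:92923030-92923149 (plus) for CHGA, chr11:14972352-14972471 (minus) for CALCA, chr3:187670395-187670514 (minus) for SST and chr7:101165570-101165689 (minus) for VGF. A match is a description of the letters and does not show that a factor binds there.

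PCSK2, the convertase at chr20:17226107-17484578 on the plus strand, was transient. Both day 16 libraries held 0 counts, where 3 counts were the floor of what a library can show. The day 23 libraries held 102 and 117 counts, the day 31 libraries 501 and 321, the day 38 libraries 42 and 47, and the day 45 libraries 12 and 31. In CPM (counts scaled by library size and TMM factors), the level was 12.3 ± 1.46 (SD, n = 2, as for every SD given here) on day 23, 44.3 ± 9.85 on day 31, 5.003 ± 0.66 on day 38 and 2.56 ± 1.16 on day 45. The order of days was 31, 23, 38, 45 and 16, and no neighbours in that order overlapped between libraries. With the day 16 libraries set to the floor of 3 counts each, the mean CPM was at least 32.9-fold higher on day 23 and at least 118-fold higher on day 31. The mean on day 31 was 3.59 times that of day 23, 8.86 times that of day 38 and 17.3 times that of day 45. PCSK2 was thus highest in the last libraries labelled c-AMP, and by day 38 it stood at 11.3% of that level.

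**Figure D1:**
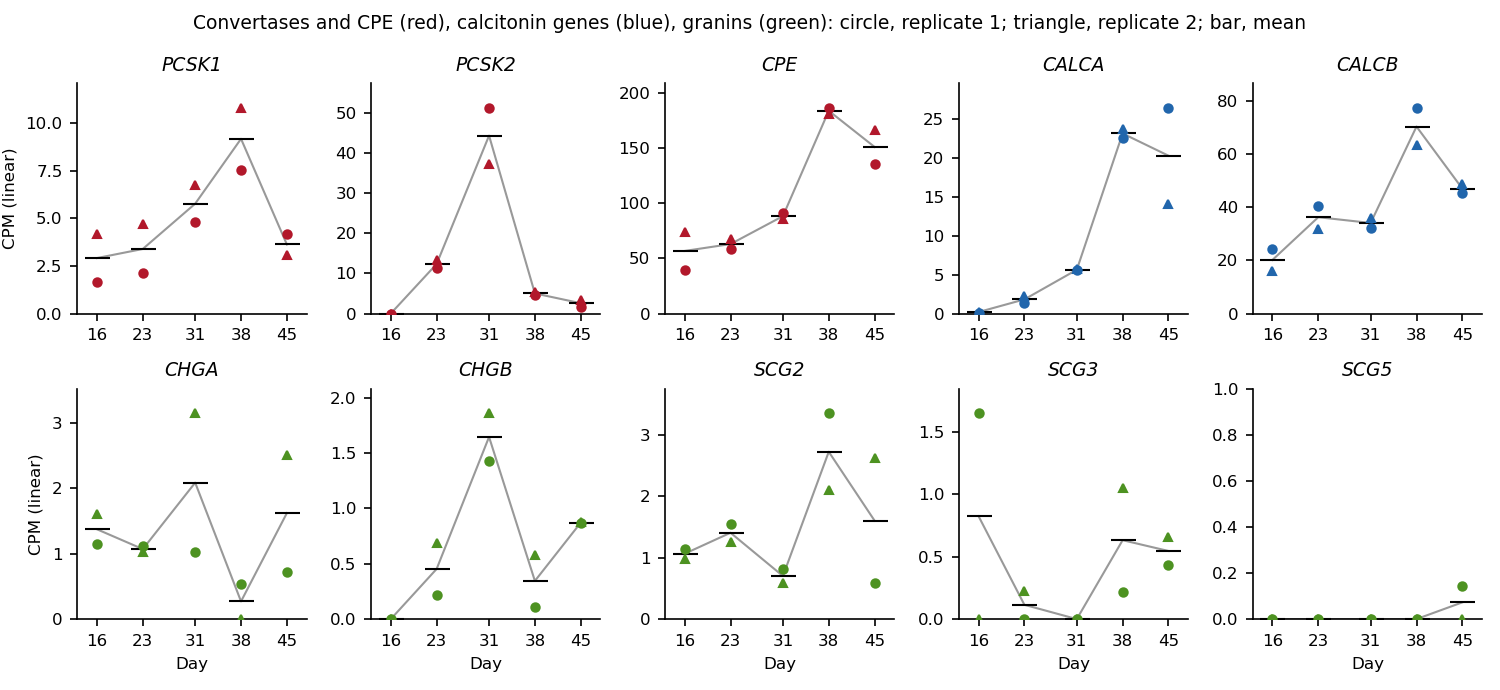
Level of each of the 10 genes by library, in CPM on linear axes that differ between panels, over days 16 to 45. Circles and triangles are replicates 1 and 2, and bars are the means of 2 libraries joined by a line. PCSK2 peaks on day 31 and CPE, CALCA and CALCB on day 38, while the granins stay under 3.35 CPM in all libraries.

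PCSK1, the other vesicle convertase, at chr5:96390333-96434143 on the minus strand, did not share that course. Its counts were 13 and 34 on day 16, 19 and 41 on day 23, 47 and 58 on day 31, 70 and 93 on day 38, and 29 and 28 on day 45. The means ran from 2.92 ± 1.79 CPM on day 16 to 9.19 ± 2.31 CPM on day 38, and the day 38 libraries lay above all others. Day 38 did not overlap with day 31, nor day 31 with day 45, whereas days 45, 23 and 16 overlapped. No difference between days passed the test by edgeR's quasi-likelihood test over 21014 genes, at an adjusted p of 0.169 for any difference among the 5 days. The largest step was from day 38 to day 45, with a log2 fold change of −1.34 (95% interval −2.70 to 0.02, adjusted p = 0.233, edgeR). Per kilobase of exon, so that genes can be compared, PCSK2 stood at 6.30 CPM per kb on day 31 and PCSK1 at 1.08, and on day 38 the order was the reverse, with 0.712 for PCSK2 and 1.72 for PCSK1.

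CPE was the most abundant of the 10 genes in CPM per kb on every day, from 18.2 on day 16 to 59.1 on day 38. The gene lies at chr4:165361194-165498547 on the plus strand. The libraries held 310 and 604 counts on day 16, 530 and 590 on day 23, 891 and 737 on day 31, 1732 and 1559 on day 38, and 934 and 1530 on day 45. Only days 16 and 23 overlapped between neighbours in the order of levels, and day 38 was the highest in both libraries. From day 31 to day 38, CPE rose by 1.06 on the log2 scale (SE 0.19, adjusted p = 7.75e-05, edgeR), from 88.5 ± 3.85 to 184 ± 3.92 CPM. From day 16 to day 45 it rose by 1.41 (SE 0.19, adjusted p = 4.63e-07, edgeR). From day 31 to day 38 the level of PCSK2 went down while CPE rose, and from day 38 to day 45 the means of both were lower.

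CALCA, at chr11:14966622-14972354 on the minus strand, came up from the floor. It had 1 and 2 counts on day 16, 12 and 20 on day 23, 54 and 49 on day 31, 209 and 203 on day 38, and 182 and 129 on day 45. Libraries of days 16, 23, 31 and 38 did not overlap at any step, and days 38 and 45 overlapped. The means were 0.187 ± 0.084, 1.81 ± 0.68, 5.61 ± 0.12, 23.1 ± 0.75 and 20.3 ± 8.72 CPM. The rise from day 16 to day 23 passed the test, with a log2 fold change of 3.17 (SE 0.78, adjusted p = 0.00495, edgeR), but not without replicate 2 of day 23 (adjusted p = 0.0596, edgeR) and not in a fit of those 4 libraries alone (adjusted p = 0.405, edgeR). From day 31 to day 38 it rose by 2.04 (SE 0.46, adjusted p = 0.0015, edgeR). Over the whole course, the summed counts of day 45 were 103 times those of day 16 after scaling, with an exact interval from 35.1 to 504 that covers counting error only.

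CALCB, at chr11:14904997-15082342 on the plus strand, was already present on day 16. Its counts were 193 and 129 on day 16, 366 and 280 on day 23, 314 and 310 on day 31, 718 and 544 on day 38, and 312 and 447 on day 45. Day 38 was the highest in both libraries, and days 23 and 31 overlapped. The gene rose by 0.85 on the log2 scale from day 16 to day 23 (SE 0.24, adjusted p = 0.0178, edgeR) and by 1.05 from day 31 to day 38 (SE 0.23, adjusted p = 0.00143, edgeR). The first call was lost without replicate 2 of day 16 (adjusted p = 0.213, edgeR) or replicate 1 of day 23 (0.19), and the second without replicate 1 of day 38 (0.0572). From day 16 to day 45 the log2 fold change was 1.22 (SE 0.24, adjusted p = 0.000181, edgeR). In CPM per kb, CALCB stood above CALCA on all 5 days, with 5.12 against 0.0858 on day 16 and 17.9 against 10.6 on day 38. CALCA lies within the annotated span of CALCB on the opposite strand, without overlap of exons. The strand setting of the counting is not given in the sources used here, so reads from unspliced RNA of one could not be told apart from those of the other.

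**Figure D2:**
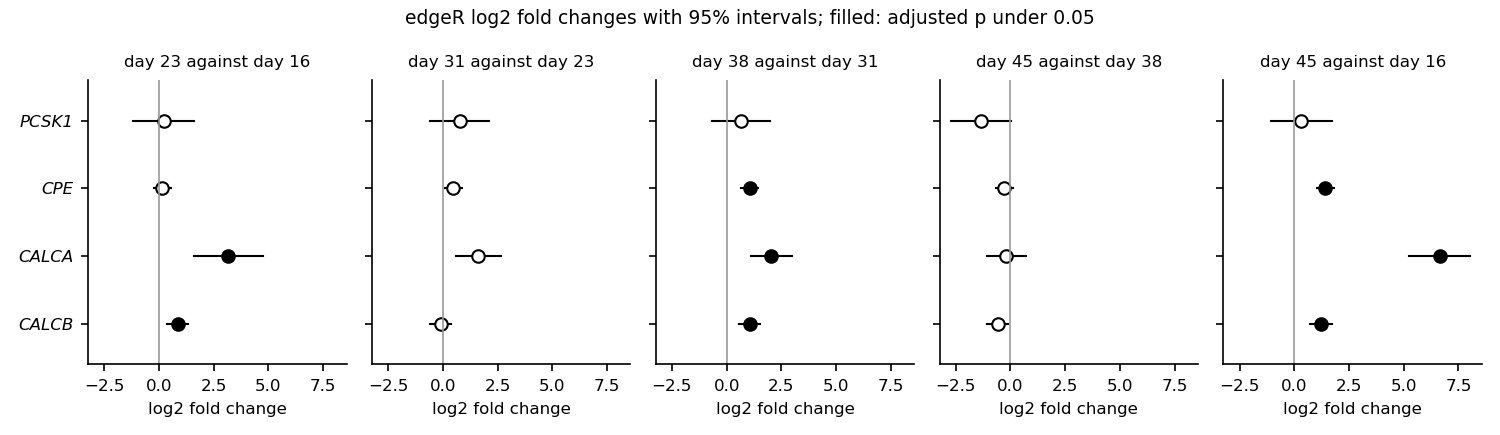
edgeR log2 fold changes (x axis) of PCSK1, CPE, CALCA and CALCB in the 5 comparisons, with 95% intervals as lines. Filled circles have an adjusted p under 0.05 over 21014 genes. Filled circles appear for CALCA and CALCB at day 23 against day 16, and for CPE, CALCA and CALCB at day 38 against day 31 and at day 45 against day 16.

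The granins were low throughout, with at most 31 counts in any library. CHGA, the C cell and neuroendocrine granin, had 9 and 13 counts on day 16, 10 and 9 on day 23, 10 and 27 on day 31, 5 and 0 on day 38, and 5 and 23 on day 45. CHGB had 0 in both day 16 libraries, 2 and 6 on day 23, 14 and 16 on day 31, 1 and 5 on day 38, and 6 and 8 on day 45. Its 2 highest libraries were thus those of day 31, as for PCSK2, at 1.65 ± 0.30 CPM. SCG2, the secretogranin that yields secretoneurin, had 4 to 31 counts per library, with its highest on day 38. SCG3, which binds CHGA in the vesicle membrane, had 0 to 13 counts and was at 0 in 4 libraries. None of the 20 tests over these 4 genes and 5 comparisons passed, with adjusted p from 0.122 to 0.985 by edgeR, and 1 had an unadjusted p under 0.05, that of CHGB at day 45 against day 16. Changes of these genes were not detectable at this depth, which does not show that there were none.

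SCG5, the chaperone of PCSK2, had 1 count in replicate 1 of day 45 and 0 in the other 9 libraries, and was not tested. Its count is uncertain. In GENCODE 44, 51.4% of its exonic bases, 1129 of 2196, are shared with the readthrough gene ARHGAP11A-SCG5, which was also at 0 in all libraries, and a read on shared bases has no single gene to be assigned to. ARHGAP11A shares 30.3% of its own bases with the same readthrough gene and had 104 to 207 counts per library. The reference also repeats 92.5% of the 50-base stretches of SCG5, and all of those of CHGA, on alternate contigs. Near CHGA, 7 neighbouring genes are repeated there in full, and their counts summed over all libraries ran from 11 for COX8C to 14924 for BTBD7, against 111 for CHGA. Near SCG5, GREM1, at 98.6%, had 5067, and 4 genes that are also largely repeated on the main chromosomes had 91 (GOLGA8K), 90 (GOLGA8O), 1062 (GOLGA8N) and 2709 (CHRNA7). For the other 8 members at most 0.915% of the stretches were on alternate contigs. The part of the counting and of these repeats in the low values of SCG5 and CHGA was not tested.

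Taking the 9 genes other than PCSK2 together, 8 passed the filter of at least 5 counts in at least 2 libraries. From day 16 to day 23, 2 of the 8 were called higher, CALCA and CALCB, and 0 lower, where 10.9% of all tested genes were called, 5.6% higher and 5.33% lower. At day 38 against day 31, 3 were called, all higher, beside 15% of all genes, 8.8% higher and 6.23% lower. From day 16 to day 45, the same 3 were called higher, CPE, CALCA and CALCB, beside 24.6% of all genes, 12.9% higher and 11.7% lower. PCSK2 rose over the first 2 steps, from day 16 to day 23 and on to day 31. From day 23 to day 31, 0 of the 8 were called by edgeR and 0 by DESeq2, with 2 at an unadjusted p under 0.05, CALCA and CPE, beside 2.25% of all genes, 1.58% higher and 0.666% lower. From day 38 to day 45, 0 were called by either tool, with 1 at an unadjusted p under 0.05, CALCB, beside 11.2% of all genes, 4.85% higher and 6.35% lower. For any difference among the days, 3 were called, beside 36.3%. The median log2 fold change of the 8 genes was 0.31, 0.63, 1.05 and −0.24 over the 4 successive steps and 0.91 from day 16 to day 45, against −0.02, 0.00, 0.00, −0.02 and 0.00 over all tested genes. These genes were chosen with earlier results known, so the counts describe them and carry no test of the set.

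Another gene of the granin family had its highest level on the same day as PCSK2. VGF, which encodes a precursor of secreted peptides, had 17 and 12 counts on day 16, 95 and 141 on day 23, 292 and 234 on day 31, 5 and 3 on day 38, and 9 and 29 on day 45. The 2 libraries of day 31 were the highest and those of day 38 the lowest, and neither overlapped with another day. VGF rose by 2.87 on the log2 scale from day 16 to day 23 (SE 0.53, adjusted p = 0.000225, edgeR) and fell by 5.95 from day 31 to day 38 (SE 0.63, adjusted p = 6.39e-09, edgeR). The other genes listed with it, PCSK1N and GNAS, were called in no comparison, so 1 of 3 was called for any day, beside 36.3% of all genes. PCSK1N, which encodes an inhibitor of PCSK1, had 20 to 88 counts per library.

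Among the peptide hormone genes with the largest changes, SST and NMU were high on days 23 and 31, as VGF was. SST, the somatostatin gene, had 949 and 1248 counts on day 16, 9200 and 7962 on day 23, 9616 and 9655 on day 31, 191 and 124 on day 38, and 329 and 219 on day 45. It rose by 2.82 on the log2 scale from day 16 to day 23 (SE 0.18, adjusted p = 1.62e-13, edgeR) and fell by 5.91 from day 31 to day 38 (SE 0.22, adjusted p = 1.37e-20, edgeR). Somatostatin is made by delta cells of the pancreas, by gut and brain cells and by some C cells. NMU, which encodes neuromedin U, went the same way, with 131 and 188 counts on day 16, 698 and 507 on day 23, 525 and 429 on day 31, 23 and 17 on day 38, and 153 and 68 on day 45. It fell by 4.53 from day 31 to day 38 (SE 0.39, adjusted p = 5.21e-11, edgeR). On day 23, NMU was at 100% of its highest day, SST at 91.6%, VGF at 46.7% and PCSK2 at 27.9%.

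Others rose late. PYY, the gene for the gut peptide YY, had 10 and 18 counts on day 16, 49 and 89 on day 23, 71 and 110 on day 31, 678 and 491 on day 38, and 991 and 1369 on day 45. PPY, the pancreatic polypeptide gene, had 0 in both day 16 libraries, 1 and 21 on day 23, 40 and 26 on day 31, 697 and 525 on day 38, and 2405 and 3066 on day 45. TAC1, the precursor of substance P, was at 0 in the 4 libraries of days 16 and 23, had 25 and 24 counts on day 31, 295 and 309 on day 38, and 214 and 286 on day 45. In none of the 3 genes did libraries up to day 31 overlap with those of days 38 and 45. Between days 31 and 38 the log2 fold changes were 2.71 for PYY (SE 0.27), 4.25 for PPY (SE 0.30) and 3.66 for TAC1 (SE 0.43), with the highest of the 3 adjusted p at 6.73e-08 (edgeR). PYY and PPY were also called higher from day 16 to day 23 (adjusted p = 9.5e-05 and 0.00292, edgeR). Against day 16, PPY was at least 912-fold higher on day 45 and TAC1 at least 90.5-fold higher on day 38. At most 2.36% of the 50-base stretches of PPY and 1.91% of PYY, its relative, are repeated on the main chromosomes. PYY and PPY were highest on day 45 and TAC1 on day 38, the highest day of CALCA and CPE.

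**Figure D3:**
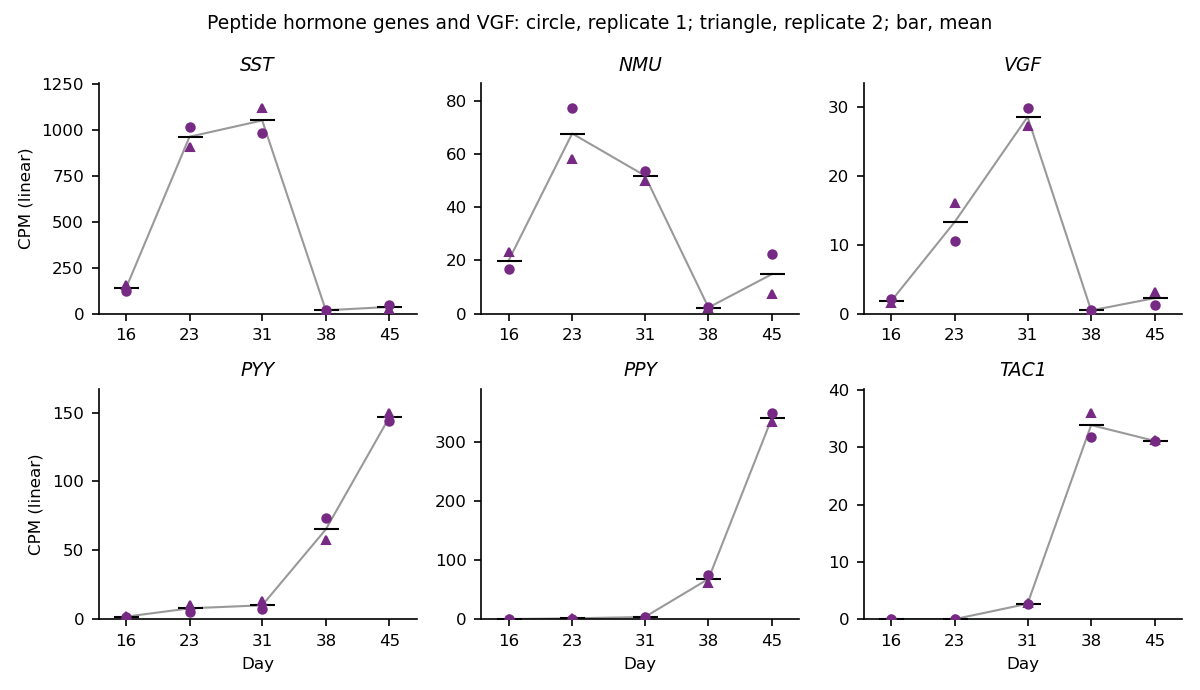
Levels of SST, NMU, VGF, PYY, PPY and TAC1 by library, in CPM on linear axes that differ between panels, over days 16 to 45. Circles and triangles are replicates 1 and 2 and bars the means. SST, NMU and VGF are high on days 23 and 31 and PYY, PPY and TAC1 on days 38 and 45.

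**Figure D4:**
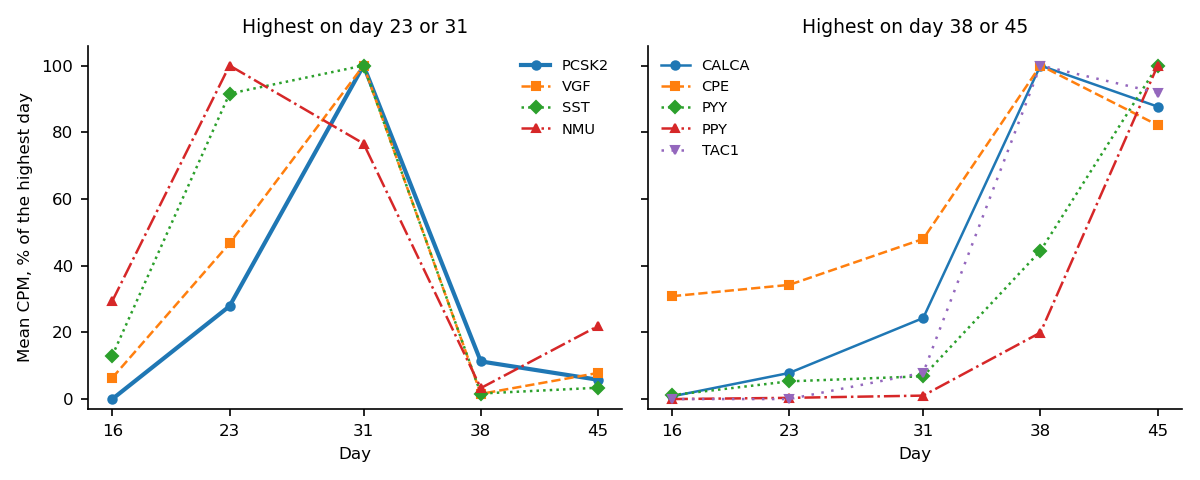
Mean CPM of each gene as a percentage of its highest day, over days 16 to 45, with PCSK2 as a thick line. PCSK2 and VGF reach 100% on day 31 and are at 11.3% and 1.56% on day 38, whereas CALCA and CPE reach 100% on day 38.

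Of 43 peptide hormone genes listed, 31 were tested. From day 16 to day 23, 4 rose and 1 fell (10.9% of all genes were called), and from day 23 to day 31, 2 rose and 0 fell (2.25%). Between days 31 and 38, 5 rose and 2 fell (15% of all genes). At day 45 against day 38, NMU, PPY, PYY and SST rose and 0 fell (11.2%). The call of PPY in that step was lost by DESeq2, at a log2 fold change of 2.37 (adjusted p = 0.135, DESeq2). From day 16 to day 45, 5 rose and 2 fell (24.6% of all genes). POMC, the precursor gene of ACTH, took another course, with 93 and 171 counts on day 16 and 4 and 2 on day 45, and was among those called lower. ADM, the adrenomedullin gene, fell by 1.98 on the log2 scale from day 16 to day 23 (adjusted p = 0.000946, edgeR) and rose by 1.51 from day 23 to day 31 (adjusted p = 0.0396, edgeR), a call lost when any one of 5 libraries was left out, namely either of day 23, replicate 1 of day 31 or either of day 38 (adjusted p = 0.0502 to 0.401, edgeR). Among those that rose late was NPPC, a natriuretic peptide gene, up by 7.17 on the log2 scale between days 31 and 38 (adjusted p = 4.75e-06, edgeR). Its counts were 2 and 0 on day 31 and 140 and 173 on day 38. The log2 fold change ran from 6.32 to 10.2 without one library each. GRP, the lung neuroendocrine peptide gene, had 0 to 9 counts. The genes for insulin and glucagon (INS, GCG) and 5 more were at 0 in all libraries.

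Other processing enzymes also changed after day 31. Of 7 other proprotein convertases, all tested, PCSK5 and PCSK6 rose and FURIN fell from day 31 to day 38. PCSK6 had 12 and 1 counts on day 16, 28 and 17 on day 23, 34 and 38 on day 31, 534 and 478 on day 38, and 513 and 541 on day 45. It rose by 3.84 on the log2 scale from day 31 to day 38 (SE 0.37, adjusted p = 5.99e-10, edgeR). PCSK5 rose by 2.25 (SE 0.18, adjusted p = 7.94e-12, edgeR). The fall of FURIN, by 0.51 (SE 0.18, adjusted p = 0.0459, edgeR), was lost under several alternatives, with adjusted p of 0.0537 by DESeq2. Of 10 genes that trim or modify peptide ends, 2 rose and 3 fell in the same step, in which 15% of all genes were called. PAM, which amidates peptides such as calcitonin at their C terminus, fell by 0.96 from day 16 to day 23 (adjusted p = 1.4e-05, edgeR), rose by 0.68 from day 23 to day 31 (adjusted p = 0.00605, edgeR), rose by 1.53 from day 31 to day 38 (SE 0.15, adjusted p = 5.12e-10, edgeR) and fell by 0.70 from day 38 to day 45 (adjusted p = 0.000727, edgeR). Its rise from day 23 to day 31 was not called without replicate 1 of day 23 (adjusted p = 0.161, edgeR) or either replicate of day 31 (0.0614 and 0.0639), nor its last fall without replicate 2 of day 38 (0.0565). The gene CPM, a carboxypeptidase of the cell surface and not the unit, fell by 1.68 and QPCT, which forms pyroglutamate at peptide ends, by 1.57 from day 31 to day 38 (adjusted p = 4.26e-10 and 0.00108, edgeR).

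Genes of dense core vesicles and their release moved in both directions. Of 33 listed, 32 were tested. From day 16 to day 23, 3 rose and 4 fell, beside 10.9% of all genes called, and from day 23 to day 31 CADPS2 alone rose, beside 2.25%. At day 38 against day 31, 8 rose and 6 fell, beside 15% of all genes called, and from day 16 to day 45, 10 rose and 5 fell, beside 24.6%. SNAP25, a membrane fusion protein gene, rose by 2.78 from day 31 to day 38 (SE 0.50, adjusted p = 8.55e-05, edgeR), from 22 and 30 counts to 168 and 183. CADPS, which primes vesicles for release, fell by 2.93 from day 16 to day 23 and rose by 2.50 from day 31 to day 38 (adjusted p = 2.93e-06 and 5.4e-05, edgeR). RAB3B, a vesicle GTPase gene, fell by 2.47 from day 16 to day 45 (SE 0.15, adjusted p = 2.96e-15, edgeR). SYT4, a synaptotagmin of dense core vesicles, was highest on day 31, at 11.1 ± 2.39 CPM, and rose by 3.36 from day 16 to day 23 (SE 0.81, adjusted p = 0.00436, edgeR), a call that was lost without replicate 2 of day 16 (adjusted p = 0.0694, edgeR) or of day 23 (0.0801). SYP, the synaptophysin gene used to mark neuroendocrine cells, had 0 to 14 counts per library.

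**Figure D5:**
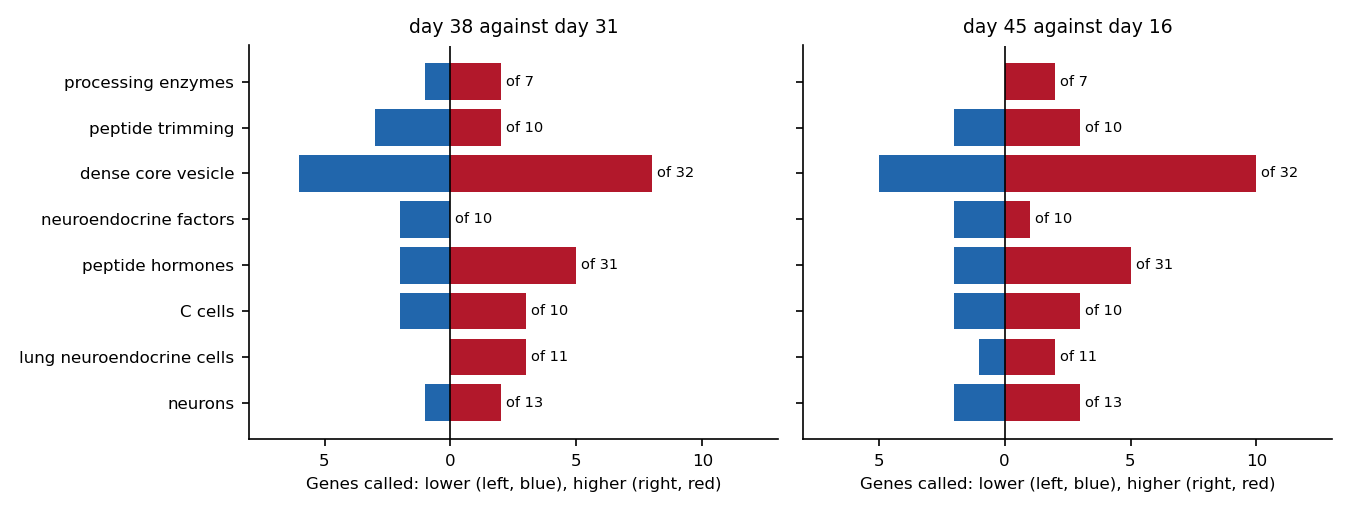
Number of genes called lower (blue, to the left) and higher (red, to the right) in 8 gene lists, from day 31 to day 38 and from day 16 to day 45, with the number tested beside each bar. Called means an edgeR adjusted p under 0.05. In the dense core vesicle list 8 genes are higher and 6 lower in the first comparison and 10 and 5 in the second.

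Several transcription factors of neuroendocrine cells were at or near 0. Of 17 listed, 10 were tested. NEUROG3, NKX2-2 and FEV were at 0 in all 10 libraries. NEUROD1 had 0 to 9 counts per library and INSM1 0 to 8. ISL1, which C cells and islet cells express, was the most abundant in the mean over all libraries. It had 640 and 866 counts on day 16, 1427 and 1462 on day 23, 936 and 951 on day 31, 378 and 374 on day 38, and 60 and 89 on day 45. On day 45 PROX1 (54.0 CPM) and MYT1 (12.7) stood above ISL1 (9.21). Between days 16 and 23, 2 of the 10 rose and 1 fell, beside 10.9% of all genes called. ISL1 rose by 0.79 on the log2 scale (adjusted p = 0.00143, edgeR) and MYT1 by 2.03 (adjusted p = 0.00749, edgeR). PROX1 fell by 0.82 (adjusted p = 0.00781, edgeR). Between days 23 and 31 ISL1 alone was called, lower, beside 2.25% of all genes. ISL1 fell by 3.34 on the log2 scale from day 16 to day 45 (SE 0.20, adjusted p = 3.06e-15, edgeR), while CALCA rose. RFX6, an islet factor, fell by 3.28 (SE 0.45, adjusted p = 5.14e-07, edgeR) and MYT1 rose by 2.45 (SE 0.52, adjusted p = 0.000429, edgeR) over the same days. Of 6 genes for repressors of neuroendocrine or neuronal genes, 1 was higher and 3 lower on day 45 than on day 16, beside 24.6% of all genes called. Among them REST, which silences neuronal genes, fell by 0.90 (SE 0.14, adjusted p = 2.71e-06, edgeR), from 286 ± 42.0 to 153 ± 22.9 CPM. HES1 and YAP1 were the others that fell. RCOR1 was the 1 that rose, by 1.43 (adjusted p = 9.07e-10, edgeR), from 91.4 ± 1.64 to 247 ± 1.76 CPM.

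Of 6 genes of amine synthesis, edgeR called TPH2 alone, at day 45 against day 16, where DESeq2 also called 1 and 24.6% of all genes were called, and DESeq2 called 1 at day 45 against day 38, where edgeR called 0 of the list and 11.2% of all genes. Of 5 receptor genes for calcitonin and CGRP, 3 were tested and 0 were called in the 5 comparisons by edgeR, with 1 called by DESeq2 from day 23 to day 31, and CALCRL was called by edgeR for any day. An unadjusted p under 0.05 was seen for RAMP1 at day 31 against day 23 and for CALCRL at day 45 against day 38. Over all genes, 2.25% to 24.6% were called in these comparisons and 36.3% for any day. CALCR, the calcitonin receptor gene, had 0 to 5 counts per library and RAMP3 was at 0 in all.

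Markers of other cells that an NKX2-1GFP+ gate could hold were read beside these results, and 15% of all genes were called from day 31 to day 38, 8.8% higher and 6.23% lower. For C cells, 11 markers were listed, of which CALCA, CALCB and CHGA are members here. Of these, 10 were tested. In the step from day 16 to day 23, 4 rose (CALCA, CALCB, ISL1 and SST) and 0 fell, beside 10.9% of all genes called, 5.6% higher and 5.33% lower. Between days 23 and 31, 0 rose and 1 fell (ISL1), beside 2.25% of all genes. From day 31 to day 38, 3 rose (CALCA, CALCB and NCAM1) and 2 fell (ISL1 and SST). The summed level of the list was 1139 and 1304 CPM on day 31 and 291 and 283 on day 38. This direction was set by SST, the most abundant gene of the list up to day 31. On days 38 and 45 NCAM1 was above it. Without SST the sum was 137 and 157 CPM on day 16, 226 and 223 on day 23, 155 and 181 on day 31, 270 and 268 on day 38, and 154 and 161 on day 45. SYP and GFRA4 were at or under the floor in the median library, and RET, a receptor gene of C cells, had 3 and 23 counts on day 16, 5 and 5 on day 23, 14 and 6 on day 31, 42 and 38 on day 38, and 61 and 32 on day 45. Its libraries of days 38 and 45 lay above all earlier ones, and it was called for any difference among the days (adjusted p = 0.0312, edgeR) but in none of the 5 comparisons. For lung neuroendocrine cells, CALCA and UCHL1 rose from day 16 to day 23 and 0 fell, of 11 tested, and 0 were called from day 23 to day 31. CALCA, ENO2 and NCAM1 rose from day 31 to day 38 and 0 fell. The summed level of this list was 110 and 137 CPM on day 31, 326 and 307 on day 38 and 221 and 189 on day 45. ENO2 was the most abundant in the mean over all libraries. By day means, UCHL1 was above it on day 31 (50.7 against 47.3 CPM) and NCAM1 on day 38 (122.5 against 109.8). GRP, SYP, INSM1 and NEUROD1 of this list were at or under the floor in the median library, with at most 14 counts in any. NCAM1, which is in both lists, rose by 3.198 (SE 0.24, adjusted p = 2e-12, edgeR), from 99 and 143 to 1086 and 1097 counts. The C cell and lung neuroendocrine lists thus held a few genes that rose with CALCA, while CHGA and SYP stayed at 27 counts or fewer in each library.

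For neurons, 13 markers were tested. DCX rose and NEFL fell from day 16 to day 23, beside 10.9% of all genes called, and MAP2 alone rose from day 23 to day 31, beside 2.25%. ELAVL4 had means of 4.96, 12.7, 10.4, 0.923 and 0.981 CPM from day 16 to day 45. From day 31 to day 38, 2 rose (NEFL and TUBB3) and 1 fell (ELAVL4, by 3.49, adjusted p = 0.000859, edgeR). In this step, as for the lists that follow, 15% of all genes were called, 8.8% higher and 6.23% lower. TUBB3 rose by 1.203 (SE 0.37, adjusted p = 0.0219, edgeR), a call lost with library sizes in place of TMM factors (adjusted p = 0.0677, edgeR), without replicate 1 of day 31 (0.196) and without either replicate of day 38 (0.231 and 0.0866). MAP2, the most abundant, was highest on day 31, at 132 ± 0.65 CPM, and fell by 1.64 from day 38 to day 45 (adjusted p = 1.36e-08, edgeR). Neuronal markers summed to 190 and 190 CPM on day 31, when PCSK2 was highest, and to 167 and 187 on day 38. Without MAP2 they summed to 58.0 and 57.0 CPM on day 31 and to 68.5 and 73.7 on day 38, so the direction turned. Of 14 thyroid follicular genes, 7 rose, 0 fell and 7 were not called from day 31 to day 38, and from day 38 to day 45, 2 rose and 5 fell (11.2% of all genes called). From day 31 to day 38 their sum went from 2073 and 2064 CPM to 8665 and 7842, most of it TG, and without TG from 1873 and 1853 to 3120 and 2968 CPM. Of 7 mesodermal markers, 3 rose and 1 fell in that step, with COL1A2 up by 2.67 (SE 0.14, adjusted p = 2.63e-16, edgeR), and the sum went from 308 and 387 to 1335 and 1349 CPM. Without COL1A2 it was 154 and 177 CPM on day 31 and 185 and 187 on day 38. Of 8 airway and goblet cell markers, 2 rose and 1 fell. Their sum went from 34.9 and 55.8 to 80.6 and 63.0 CPM and to 185 and 111 on day 45. By day means, FOXJ1 was the most abundant on day 31, MUC5AC on day 38 and MUC5B on day 45. Without MUC5B the sum was 33.8 and 51.2 CPM on day 31, 63.5 and 49.8 on day 38 and 88.1 and 63.1 on day 45. Days 31 and 38 then overlapped. The part of these cells in the rise of CPE, CALCA, CALCB and PCSK5 was not tested.

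The genes most like PCSK2 over the 10 libraries, by Pearson correlation of log2 CPM among 13114 genes with a mean of at least 5 CPM, were ITGA2 (r = 0.99), PLEKHA4 (0.98), BRSK2 (0.98), RAP1GAP2 (0.98) and CITED2 (0.97). The libraries share their days, so the values describe a like course and nothing more. ITGA2, an integrin gene, had means of 23.5, 50.2, 65.6, 42.7 and 34.2 CPM from day 16 to day 45, and BRSK2, a kinase gene, 2.86, 36.5, 69.1, 13.2 and 11.95 CPM. PCSK1, at a mean of 4.98 CPM, and CHGA, CHGB, SCG2, SCG3 and SCG5 lay under the cut of 5 CPM and were not compared. For VGF r was 0.65, for SST 0.47, for CALCA 0.47, for CALCB 0.42, for NMU 0.30 and for CPE 0.22. Spearman's rho gave another order, with 0.66 for VGF, 0.52 for SST, 0.49 for NMU, 0.13 for CALCA, 0.12 for CALCB and 0.06 for CPE. None of the 5 genes is a member of the lists of secretory or neuroendocrine genes used here, which does not show that they have no part in secretion. By rank correlation 1 of the 5 stayed among the top 5.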

How the data were processed

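By the methods of the study and the labels, the authors used Trimmomatic on paired-end reads from low-input libraries, HISAT2 for alignment to GRCh38 and HTSeq for counting per gene (GRCh38.p13). The deposited values are raw counts for 28265 symbols in each of 10 libraries, with no normalization. PCR copies are not separated from molecules, so floors and counting intervals cover counting error only. Samples were grouped by the day in their labels, and the methods state that replicates are biological.

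From these counts, the 21014 genes that reached 5 counts in 2 or more libraries were tested with edgeR 4.0.16 in R 4.3.3 (glmQLFit and glmQLFTest, TMM factors, 1 mean per day, 5 residual degrees of freedom), adjusted by Benjamini-Hochberg over all genes with a threshold of 0.05. Same-day replicates differed by more than sampling noise (chi-square divided by degrees of freedom, 8.38 to 13.7). SEs are approximate, from the F statistic. CPM per kb used exon lengths of GENCODE 44. Repeats were exact matches of 50-base stretches. The procedure was tested on simulated data. The alternatives were DESeq2 1.42.0, other scalings and filters, the compared libraries alone, a replicate block, a fold threshold and leaving out each library.

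Members and lists were chosen with earlier results of these data known. Named are all members, the defining genes of each list (one is not reported here), up to 4 genes per list and comparison with the largest change among those called at a mean of at least 2 CPM, and the 5 genes most correlated with PCSK2. Further genes (NEUROG3, NKX2-2, FEV, INS, GCG, RET, POMC, RAMP1, RAMP3, CALCRL, PCSK1N, GFRA4, ARHGAP11A and neighbours of members) were chosen after their values were seen.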

Additional observations from a re-analysis of the deposited data

How the results depend on the processing

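Calls of the 9 genes other than PCSK2 kept their number under DESeq2, both other scalings, all other filters and the replicate block (2, 0, 3 and 0 over the 4 steps). With a log2 fold change of at least 1 required, 1 was called from day 16 to day 23. In a fit of the 4 libraries compared, 1 was called from day 16 to day 23 and 1, CALCB, from day 38 to day 45 (adjusted p = 0.0277, edgeR). Without one library each, 1 to 2 were called from day 16 to day 23, 0 to 1 from day 23 to day 31 (CPE without replicate 2 of day 16, adjusted p = 0.0497, edgeR) and 2 to 3 from day 31 to day 38, and CPE was called from day 16 to day 23 without replicate 2 of day 16 (adjusted p = 0.0141, edgeR).

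Without one library each, values that were not called changed sign: the log2 fold change of PCSK1 ran from −0.47 to 1.04 (day 23 against day 16) and −0.22 to 1.13 (day 45 against day 16), that of CPE from −0.22 to 0.68 (day 23 against day 16), that of CALCA from −0.71 to 0.19 (day 45 against day 38) and that of CALCB from −0.25 to 0.0909 (day 31 against day 23). The cause was not tested.

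Over all genes, without one library each, 1401 to 2477 were called from day 16 to day 23, 214 to 679 from day 23 to day 31, 1818 to 3679 from day 31 to day 38 and 1216 to 2866 from day 38 to day 45. With a log2 fold change of at least 1 required, 1183, 282, 1691 and 1202 were called in these steps and 3252 from day 16 to day 45, by construction fewer. In a fit of the 4 libraries of days 23 and 31, 734 were called. In other genes named, calls lost without one library included those of VGF and SST from day 38 to day 45, of RFX6 and QPCT from day 31 to day 38 and of MYT1 from day 16 to day 23.

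Replicate numbers do not pair the samples: deviations from the day means correlated at −0.03 to 0.02 between days. With the replicate number as a block, 2703 genes were called from day 16 to day 23, 678 from day 23 to day 31, 3472 from day 31 to day 38, 2691 from day 38 to day 45 and 5460 from day 16 to day 45. With 2 libraries a day, changes in the granins at a few counts per library could not be resolved.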
